A study of Mus musculus with 6 samples.

Results

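Matricellular proteins are secreted into the extracellular matrix and act there mainly on cell behaviour, by binding integrins, other surface receptors, growth factors and collagen, rather than as load-bearing fibres. In the heart they are abundant during development, mostly low in the healthy adult and raised again by injury, when activated fibroblasts make much of them. The 10 genes described here were fixed by name: Postn (periostin), Sparc, Tnc (tenascin C), the thrombospondin genes Thbs1 and Thbs2, Fn1 (fibronectin, a structural matrix protein often grouped with them), the CCN family genes Ccn1 (Cyr61) and Ccn2 (Ctgf), Spp1 (osteopontin) and Fstl1. All 10 were found among the 27179 genes of the bulk count table, by Entrez identifier, and among the 28052 and 28360 nuclear genes of the single-cell tables, by Ensembl identifier.

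The study grew immature cardiomyocytes (imCMs) from neonatal C57BL/6 mice on cardiac fibroblasts, of either neonatal (NF) or adult (AF) origin, and asked how the age of the fibroblasts acts on the imCMs. Bulk RNA-Seq was done on the imCM fraction of both co-cultures, imCM-NF and imCM-AF (n = 2 libraries each). Single-cell RNA-Seq on a nanowell chip, in which transcripts carry a unique molecular identifier (UMI), gave 2 further libraries, one labelled as cardiomyocytes and the other as fibroblasts. The labels give neither a genetic change nor a treatment beyond the co-culture. Fibroblasts had been passaged in culture before use, and the co-culture with AF was set up with more of them for each imCM. The labels do not say whether the libraries of a group came from separate cultures, so the p-values below measure the spread between these libraries, which may be technical.

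Total counts were between 9278909 and 12088577 per bulk library. The imCMs had been separated from the fibroblasts by low-speed spins, per the labels, and by sorting on a cell dye, per the methods of the study. Fibroblast markers were still read in them: the 12 markers summed to 16164 and 17714 CPM (read counts scaled to a common library size by TMM) in imCM-NF and to 11656 and 9216 CPM in imCM-AF, beside 34485 to 48666 CPM for 14 cardiomyocyte markers. In the single-cell data 2247 of 2462 wells were kept, of which 1296 belonged to the cardiomyocytes library and 951 to the other, and 269 barcodes occurred in both libraries. Cardiomyocyte markers summed to between 40127 and 54396 CPM in the cardiomyocytes library. In the fibroblasts library, fibroblast markers summed to between 2183 and 10886 CPM and cardiomyocyte markers to between 168 and 5863 CPM, so that some of its wells went against the label.

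The start regions of 4 members are shown as examples: Postn and Thbs2 were called lower in imCM-AF, Spp1 was called higher, and Ccn1 was, with Sparc and Tnc, above its NF counterpart in each single-cell contrast. Each run gives the 250 bases before a RefSeq start (assembly GRCm38.p6, the build of the files), 5′ to 3′ on the strand of the gene. Capitals mark TATAAA and, in Ccn1, the TEAD letters GGAATG read on the opposite strand. The windows are chr3:54360857-54361106 (plus strand) for Postn, chr17:14694263-14694512 (minus strand) for Thbs2, chr5:104434861-104435110 (plus strand) for Spp1 and chr3:145649986-145650235 (minus strand) for Ccn1.
Postn: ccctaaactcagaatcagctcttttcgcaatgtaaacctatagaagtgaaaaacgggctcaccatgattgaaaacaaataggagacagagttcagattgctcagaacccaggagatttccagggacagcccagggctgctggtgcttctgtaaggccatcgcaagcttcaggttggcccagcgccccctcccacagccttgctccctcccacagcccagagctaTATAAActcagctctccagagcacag
Thbs2: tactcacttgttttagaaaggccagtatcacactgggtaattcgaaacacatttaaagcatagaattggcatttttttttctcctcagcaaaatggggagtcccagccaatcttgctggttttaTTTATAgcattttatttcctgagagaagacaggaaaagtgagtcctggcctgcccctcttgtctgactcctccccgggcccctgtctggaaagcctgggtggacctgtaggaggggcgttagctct
Spp1: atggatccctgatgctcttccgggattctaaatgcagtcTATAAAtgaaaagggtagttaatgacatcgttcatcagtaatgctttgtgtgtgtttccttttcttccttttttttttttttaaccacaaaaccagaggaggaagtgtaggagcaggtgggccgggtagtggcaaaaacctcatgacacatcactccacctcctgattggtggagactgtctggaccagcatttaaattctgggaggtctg
Ccn1: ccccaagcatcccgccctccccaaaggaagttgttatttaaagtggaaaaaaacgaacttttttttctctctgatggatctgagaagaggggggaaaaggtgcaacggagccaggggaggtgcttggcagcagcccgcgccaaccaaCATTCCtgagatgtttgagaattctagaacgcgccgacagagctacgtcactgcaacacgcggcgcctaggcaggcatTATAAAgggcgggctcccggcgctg
RefSeq windows were found for 7 of the 10 members. Of those not shown, the windows of Tnc held TATAAA. The windows of Sparc and Fstl1, and a further one each of Postn and Spp1, did not. Both strands were searched for GGAATG, which TEAD factors, the partners of YAP, bind. The AP-1 letters TGANTCA, the TATA box written as TATAAA and the CArG box of SRF were searched in the same way, and no matches overlapped in the windows shown. The TATA letters lie 26 to 21 bases before the Postn start and 25 to 20 bases before the Ccn1 start, in the direction of the gene. In Spp1 the same letters lie farther away, 211 to 206 bases before the start, and in Thbs2 they lie on the opposite strand. Of 32851 mouse windows of this length, 12.4% held the TATA letters and 12.6% held the TEAD letters. Neither the AP-1 letters, present in 6.75% of all windows, nor the CArG box, present in 1.47%, was found in the 4 windows shown. A match of letters is a description and not evidence of binding.

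To place the members by abundance, bulk counts were divided by exon length (RPKM). Sparc, a collagen-binding glycoprotein, was the highest with a mean of 877 RPKM over the 4 libraries, followed by Thbs1 (446), Ccn2 (367), Fn1 (344), Fstl1 (290) and Ccn1 (286). Postn (94.1), Tnc (56.5), Thbs2 (19.7) and Spp1 (17.4) came last. The lowest Sparc library (704 RPKM) was above the highest Thbs1 library (521 RPKM), and the lowest Ccn1 library (263 RPKM) above the highest Postn library (163 RPKM). The neighbours from Thbs1 down to Ccn1 overlapped each other in their libraries, as did Postn with Tnc and Thbs2 with Spp1.

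In bulk, 3 of the 10 members were called lower in imCM-AF and 1 was called higher. Calls required an absolute log2 fold change over 0.58 together with a Benjamini-Hochberg adjusted p below 0.05 from the quasi-likelihood test of edgeR. Over all 14041 genes tested, 11.1% were called, 6.15% higher and 4.99% lower in imCM-AF. The median log2 fold change of the members was -0.28, beside 0.0011 for all genes tested. Libraries of the groups did not overlap for any member but Tnc, and since 66% of all genes tested separated in this way, the separation by itself marks no gene.

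**Figure D1:**
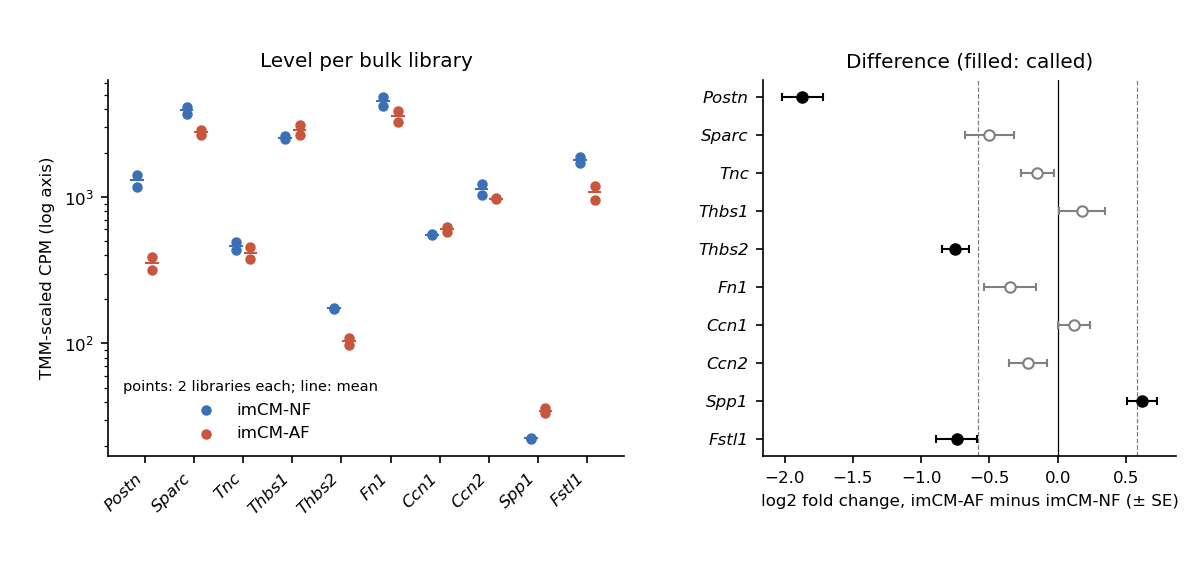
Left, level of each member in each bulk library in TMM-scaled CPM on a log axis, with imCM-NF in blue and imCM-AF in red (points are 2 libraries per group, lines are means). Right, log2 fold change of imCM-AF minus imCM-NF with its SE, where filled points were called and dashed lines mark the fold threshold of 0.58; Postn stands far to the left at -1.87.

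Postn, the gene of periostin, which binds integrins and collagen and marks activated fibroblasts, was measured at 1177 and 1417 CPM in imCM-NF, against 390 and 318 CPM in imCM-AF (Entrez 50706, chromosome 3, 54359267 to 54391041). Both imCM-AF libraries lay far below both imCM-NF libraries. The log2 fold change was -1.87 ± 0.15 (SE, n = 2 per group, edgeR adjusted p = 1.6e-07), and Postn was the only member still called at a log2 threshold of 1. In bulk RNA, fewer fibroblasts and less transcript per fibroblast cannot be told apart. The sum of the fibroblast markers, which Col1a1 leads, moved in the same direction, and per 100 CPM of that sum Postn measured 7.28 and 8 CPM in imCM-NF, against 3.35 and 3.45 CPM in imCM-AF, so that the libraries stayed apart on that scale too. In the single-cell fibroblasts library the same markers summed to 6983 and 10886 CPM in wells named AF1 and AF2. In wells named NF1 and NF2 they summed to 2183 and 3059 CPM. Whether the sum measures fibroblast content alike in both bulk groups was not tested.

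Thbs2, a matrix thrombospondin that binds metalloproteases, was at 172 and 175 CPM in imCM-NF, against 109 and 97.5 CPM in imCM-AF (Entrez 21826, chromosome 17, 14665500 to 14694262). It fell by 0.75 on the log2 scale (SE 0.10, edgeR adjusted p = 3.17e-05). Fstl1, a secreted glycoprotein of the follistatin family, was at 1708 and 1872 CPM in imCM-NF, against 1191 and 959 CPM in imCM-AF (Entrez 14314, chromosome 16, 37777055 to 37836516). It changed by -0.74 ± 0.15 on the log2 scale (adjusted p = 0.00225 by edgeR). Both differences were small once set against the fibroblast markers. Per 100 CPM of that sum, Thbs2 had 1.06 and 0.99 CPM in imCM-NF, against 0.931 and 1.06 CPM in imCM-AF, and Fstl1 had 10.6 and 10.6 CPM against 10.2 and 10.4 CPM, so that only Thbs2 of these genes overlapped. The part of the fibroblast content in these differences was not tested.

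Spp1, a phosphoprotein ligand of integrins and CD44 that macrophages also make, was the member called higher. Its imCM-NF libraries held 22.3 and 22.7 CPM and its imCM-AF libraries 33.3 and 36 CPM (Entrez 20750, chromosome 5, 104435111 to 104441053). The log2 difference was 0.62 ± 0.11 (adjusted p = 0.000688 by edgeR). Its exons overlap those of Gm42793 on the same strand in the GENCODE annotation, over 309 of 1648 exon bases, so reads there may be shared. The 8 macrophage markers, all tested, summed to 70.2 and 85.1 CPM in imCM-NF, against 61.3 and 68.4 CPM in imCM-AF, with 2 called lower and none higher. Without imCM-AF replicate 2 the calls of Spp1 and Fstl1 were lost, at log2 fold changes of 0.57 and -0.58 with edgeR adjusted p of 0.00553 and 0.0754, the first by its fold alone, while those of Postn and Thbs2 stood.

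The other 6 members were not called. Sparc was at 3705 and 4093 CPM in imCM-NF, against 2887 and 2640 CPM in imCM-AF. Its log2 difference of -0.50 ± 0.18 passed the test (adjusted p = 0.0473 by edgeR) but not the fold threshold. Fn1, the integrin-binding scaffold of new matrix, had 4210 and 4823 CPM against 3862 and 3235 CPM, with a log2 difference of -0.35 ± 0.19 (adjusted p = 0.188 by edgeR). Tnc, a hexameric matrix protein of developing and injured tissue, had 432 and 493 CPM against 458 and 376 CPM. Ccn1 had 550 and 557 CPM against 628 and 577 CPM, Ccn2 had 1227 and 1039 CPM against 983 and 968 CPM, and Thbs1, an activator of latent TGF-beta, had 2489 and 2603 CPM against 3110 and 2643 CPM. The log2 fold changes of Tnc, Thbs1, Ccn1 and Ccn2 were -0.15, 0.18, 0.12 and -0.22, with edgeR adjusted p between 0.265 and 0.474. Set against the fibroblast markers, these 6 members and Spp1 were higher in both imCM-AF libraries, so that on this scale the direction of Sparc, Tnc, Fn1 and Ccn2 turned. The limit of the scale given for Postn holds here too. Per 100 CPM of the marker sum, Sparc had 22.9 and 23.1 CPM in imCM-NF, against 24.8 and 28.6 CPM in imCM-AF. Thbs1 had 15.4 and 14.7 CPM against 26.7 and 28.7 CPM, and Fn1 had 26 and 27.2 CPM against 33.1 and 35.1 CPM. Tnc had 2.68 and 2.78 CPM against 3.93 and 4.08 CPM, Ccn1 3.4 and 3.14 CPM against 5.39 and 6.26 CPM, and Ccn2 7.59 and 5.86 CPM against 8.43 and 10.5 CPM. Exons of Tnc, Thbs1, Fn1 and Ccn2 overlap a gene of the GENCODE annotation on the opposite strand. The overlap covers 176 of 7772, 208 of 6073, 292 of 11685 and 665 of 2861 exon bases. The library kit does not mark strand, so reads of the pairs cannot be told apart within these stretches.

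The wider family moved in both directions. Of 30 further matricellular genes 25 were tested, 2 were called higher and 6 lower, and their median log2 fold change was -0.34. Tnr (tenascin R) changed most at 1.61, at 0.557 and 0.826 CPM in imCM-NF, against 2.74 and 1.68 CPM in imCM-AF. The calcium-binding matrix gene Smoc2 and the fibulins Fbln2 and Fbln5 were lower, with log2 fold changes of -1.25, -1.01 and -0.91. Among 24 receptor genes 2 were called higher and 2 lower: the thrombospondin receptor Cd36 at 1.35, the integrin Itgb6 at 0.63, the syndecan Sdc1 at -0.84 and the integrin Itga4 at -0.83. Among 25 regulators of these genes in the TGF-beta, YAP and SRF pathways none was called higher and 2 were called lower, namely the tendon factor gene Scx at -0.94 and Tead2 at -0.68. Adjusted p of these named genes by edgeR lay between 2.56e-07 (Cd36) and 0.0174 (Itgb6). The medians of the receptors and regulators were -0.27 and -0.11. Over all genes tested, 6.15% were called higher and 4.99% lower, and the few calls of these 2 lists are given as a description only.

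Markers of other cells moved with the groups as well. Of 12 fibroblast markers 1 was called higher and 6 lower, with a median log2 fold change of -0.62. Of 8 endothelial markers none was called higher and 4 were called lower, and their sum was 943 and 978 CPM in imCM-NF, against 639 and 605 CPM in imCM-AF. Of 7 smooth muscle markers 2 were called lower, of 4 epicardial markers tested 1 was called lower, and of 14 cardiomyocyte markers 2 were called higher. Beside these counts, 6.15% of all genes tested were called higher and 4.99% lower, and counts of 1 or 2 in such short lists mark no list.

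The wells were then used to ask in which cells the members were found. Each well carries a name given by the authors, here called its Type. The letters AF, NF and NCM match those of the bulk sample titles, but what the 0 in AF0, NF0 and NCM0 stands for is not given in the sources used here. Types AFNCM1 to AFNCM3, NFNCM1 to NFNCM3, NCM0_1 and NCM0_2 were in the cardiomyocytes library, and AF1, AF2, NF1, NF2 and the AF0 and NF0 Types in the fibroblasts library. Since each library is a single sample, there is no test between Types. Levels are given as CPM of UMIs, the UMIs of the gene scaled by all UMIs summed over the kept wells of a Type, with 95% exact Poisson intervals, which cover counting error only. Between 72 and 187 wells were kept per Type, with a median of 13730 to 51940 UMIs. The 5 negative control wells of each library held 1465 and 3587 UMIs in all, with 2 and 34 UMIs of the members.

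**Figure D2:**
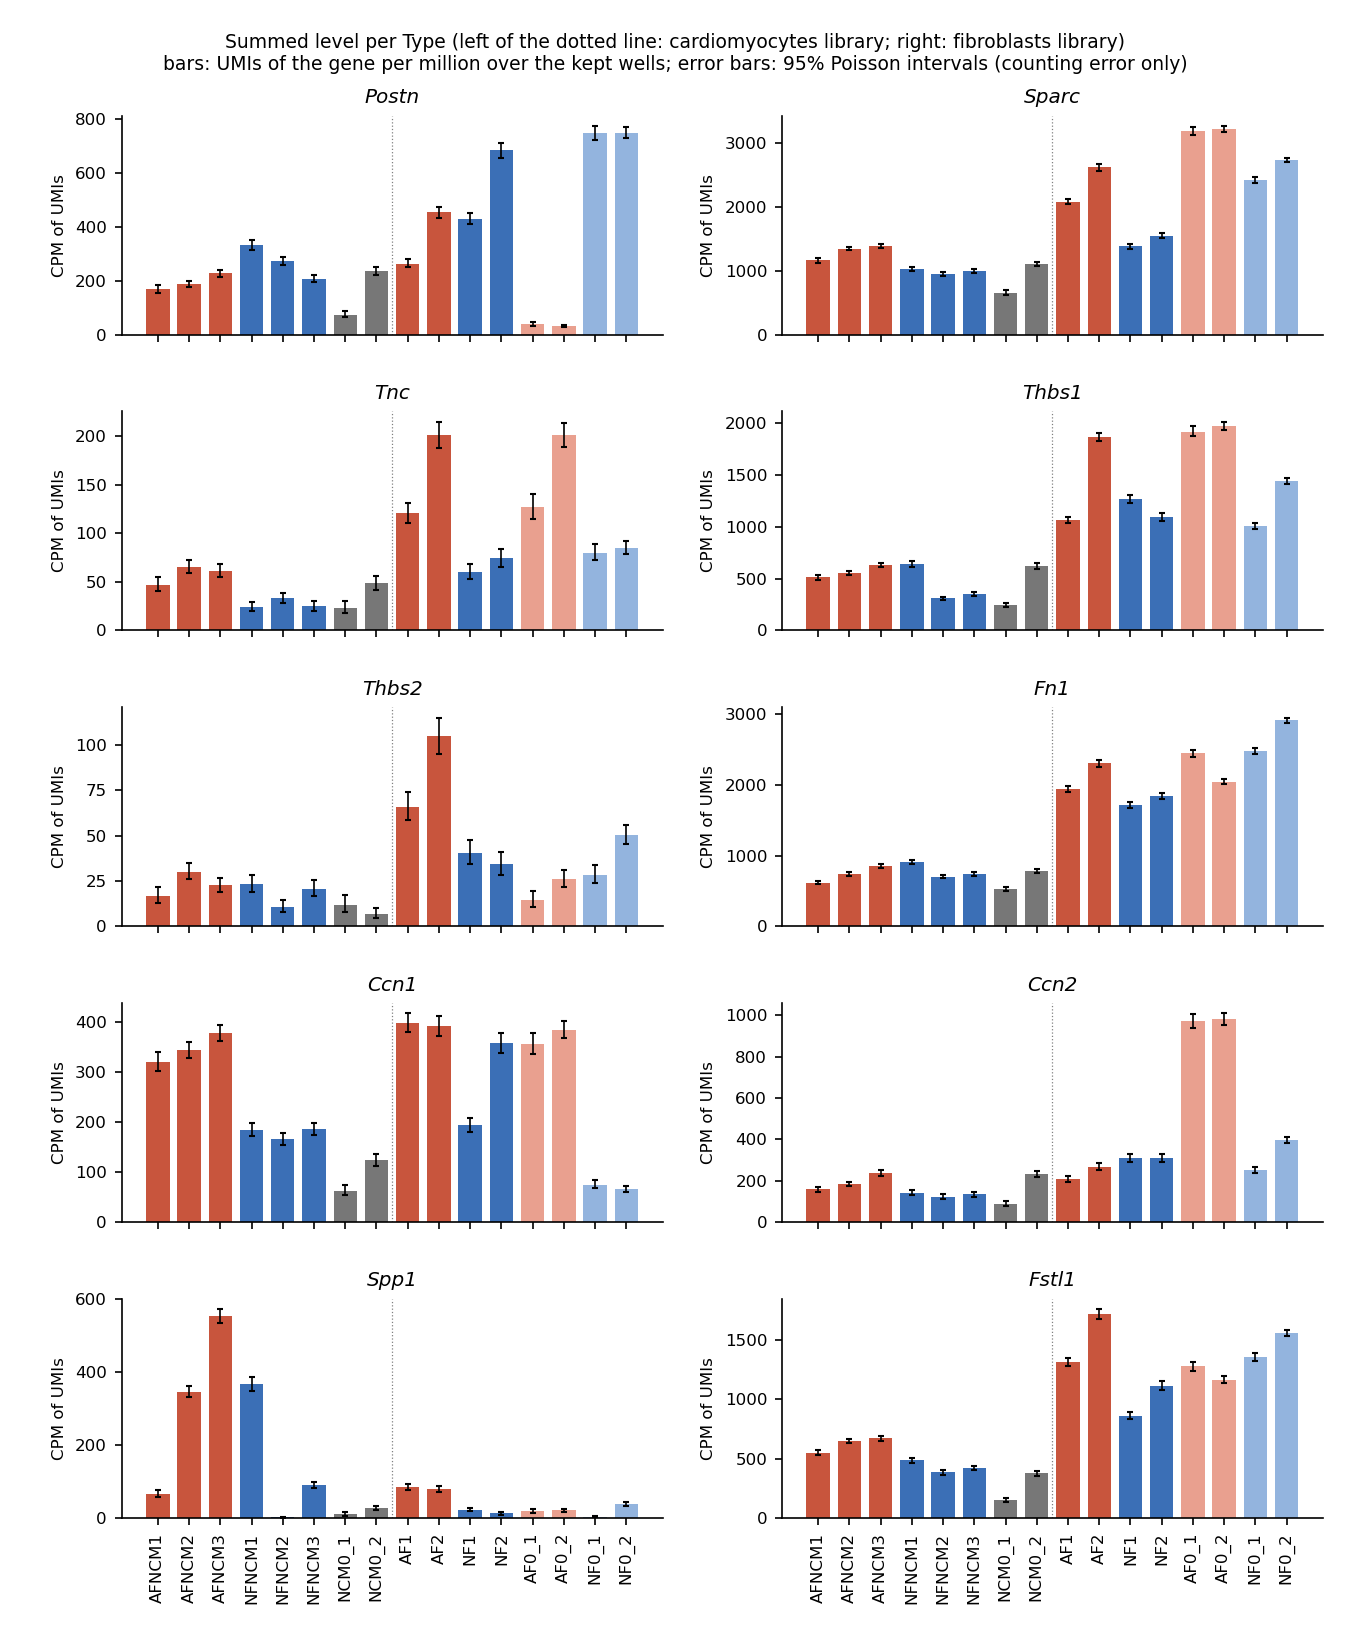
Level of each member in each Type, as CPM of UMIs summed over the kept wells, with 95% Poisson intervals for counting error; red marks AF, blue NF and grey NCM0 Types, and paler red and blue mark AF0 and NF0. Postn is near the axis in both AF0 Types and highest in both NF0 Types, while Ccn1 and Ccn2 are high in AF0.

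Postn was low in both AF0 Types and high in both NF0 Types. Its level was 40.5 CPM (interval 33.8 to 48.1) in AF0_1 and 31.4 CPM (26.7 to 36.5) in AF0_2, against 750 CPM (725 to 776) in NF0_1 and 751 CPM (732 to 771) in NF0_2. In AF1 and AF2 it was 264 and 455 CPM, and in NF1 and NF2 it was 431 and 686 CPM, so these overlapped. They did not overlap, with AF the lower, in 4 of 5 alternatives: means over wells, wells filtered on genes only, and the sums without the 5 richest wells of a Type or without cardiomyocyte-rich wells. In the cardiomyocytes library Postn was at 170, 188 and 228 CPM in AFNCM1 to AFNCM3, at 333, 275 and 207 CPM in NFNCM1 to NFNCM3, and at 74.6 and 236 CPM in NCM0_1 and NCM0_2. In the order of all Types, neighbours whose counting intervals overlapped were AF0_2 with AF0_1, each pair in the run AFNCM1, AFNCM2, NFNCM3, AFNCM3, NCM0_2, AF1 and NFNCM2, then NF1 with AF2 and NF0_1 with NF0_2.

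The share of wells with a Postn UMI gave the same order of AF0 and NF0. Thinned to 5000 UMIs per well, the share was 15.5% (exact binomial interval 8 to 26%) in AF0_1 and 13.3% (7.26 to 21.6%) in AF0_2, but 79.3% (72.3 to 85.2%) in NF0_1 and 90.3% (83.7 to 94.9%) in NF0_2. Unthinned, these shares were 48.6%, 50%, 91.2% and 100%. Thinned shares were 50% and 59.4% in AF1 and AF2 and 63.4% and 90.2% in NF1 and NF2. Between 0 and 31 wells of these Types were too shallow and were left out. Thinned shares were between 16.1% and 43.8% in the Types of the cardiomyocytes library. Its wells with at least 10 times more cardiomyocyte than fibroblast marker UMIs are set beside AF0, though they are not known to lack the gene. In them the thinned share was 17.9% (15.3 to 20.6%) and the level 86.9 CPM. The thinned AF0 shares lie near that share, and the AF0 levels of 40.5 and 31.4 CPM lie below that level. These wells belong to another library and are no background for AF0. The part of free RNA in AF0 was not tested, and no fold of Postn against AF0 is given. Before thinning, the kept wells of that marker range had a median of 17311 UMIs, against 35046 and 44197.5 in AF0_1 and AF0_2.

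Cardiomyocyte markers moved with the NF side of the fibroblasts library. They summed to 5863 and 5616 CPM in the NF0 Types, 3896 and 4100 CPM in NF1 and NF2, 445 and 203 CPM in the AF0 Types and 1257 and 168 CPM in AF1 and AF2. Leaving out the wells with more cardiomyocyte than fibroblast marker UMIs (38 and 36 wells of NF0_1 and NF0_2, 44 and 29 of NF1 and NF2, at most 4 of any AF or AF0 Type) gave Postn levels of 819 and 772 CPM in NF0, 39.3 and 31.4 CPM in AF0, 480 and 729 CPM in NF and 270 and 458 CPM in AF. AF0 and NF0 stayed apart, and AF and NF no longer overlapped, although AF2 and NF1 lay within counting error of each other. Fibroblast markers differed too. Over all kept wells they summed to 6983 and 10886 CPM in AF1 and AF2 and to 2183 and 3059 CPM in NF1 and NF2. Without the cardiomyocyte-rich wells these sums were 7128 and 10980 CPM in AF and 2482 and 3680 CPM in NF. In AF0 they were 3524 and 3745 CPM and in NF0 3276 and 4149 CPM over all kept wells. Markers of other cells differed between AF0 and NF0 as well. Epicardial markers summed to 246 and 294 CPM in AF0 and 22.7 and 39.8 CPM in NF0, and endothelial markers to 523 and 336 CPM against 46.7 and 51.4 CPM. Macrophage markers summed to 141 and 53.5 CPM against 381 and 785 CPM, and smooth muscle markers to 2968 and 3666 CPM against 3681 and 4345 CPM. The part of these marker differences in the member levels was not tested.

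The CCN genes ran against Postn in the AF0 and NF0 Types. Ccn2, which YAP and TGF-beta induce in fibroblasts, was at 973 and 982 CPM in AF0_1 and AF0_2 and at 252 and 396 CPM in NF0_1 and NF0_2. In the other fibroblast Types it was at 208 and 269 CPM (AF) and at 310 and 311 CPM (NF), so that AF0 was 4.10-fold above AF. Thinned shares of wells with a Ccn2 UMI were 98.6% and 95.9% in AF0, 45.1% and 76.6% in NF0, 40.2% and 46.9% in AF and 56.5% and 56.5% in NF.

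Ccn1, an immediate-early ligand of integrins, was at 356 and 385 CPM in AF0 and at 75.3 and 66.5 CPM in NF0, a 5.22-fold difference of the means. It was at 399 and 392 CPM in AF and at 194 and 358 CPM in NF. In the cardiomyocytes library it was at 321, 345 and 378 CPM in AFNCM1 to AFNCM3, at 185, 166 and 186 CPM in NFNCM1 to NFNCM3, and at 63.4 and 124 CPM in NCM0_1 and NCM0_2. In each contrast every Type with AF therefore stood above every Type with NF, and the means differed by 1.94-fold between AFNCM and NFNCM.

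Sparc and Tnc were likewise above their NF counterparts throughout. Sparc was between 1159 and 1385 CPM in AFNCM and between 949 and 1031 CPM in NFNCM, between 2074 and 2611 CPM in AF and 1380 and 1547 CPM in NF, and between 3178 and 3210 CPM in AF0 and 2409 and 2727 CPM in NF0. Tnc was 2.12-fold, 2.39-fold and 1.99-fold above in the same 3 contrasts, at levels from 24.3 CPM in NFNCM1 to 201 CPM in AF2 and AF0_2. Bulk Sparc was lower in imCM-AF by CPM but higher per fibroblast marker sum, and the bulk and well values come from different material and are set side by side only.

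Fstl1, Thbs2 and Fn1 differed in direction between the contrasts. Fstl1 was between 1316 and 1718 CPM in AF and between 863 and 1115 CPM in NF, but between 1167 and 1277 CPM in AF0 and between 1360 and 1559 CPM in NF0. Thbs2 was at 65.9 and 105 CPM in AF and 40.4 and 34.4 CPM in NF, but at 14.5 and 26 CPM in AF0 and 28.4 and 50.5 CPM in NF0. Fn1, at 1721 to 2913 CPM in all fibroblast Types, was 1.19-fold higher in AF than in NF and 1.20-fold higher in NF0 than in AF0. Thbs1 was at 1922 and 1977 CPM in AF0 and 1007 and 1446 CPM in NF0, and it overlapped between AF (1066 and 1867 CPM) and NF (1268 and 1097 CPM) and between AFNCM and NFNCM.

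Counted over the members, 5 were above and 0 below in AFNCM against NFNCM with no overlap of Types, 7 above and 1 below in AF against NF, and 5 above and 4 below in AF0 against NF0. Of all genes with at least 50 UMIs in the Types compared, 14.1% were above and 5.72% below in AFNCM against NFNCM, 28.1% above and 16.5% below in AF against NF, and 29.3% above and 25% below in AF0 against NF0. The last 2 contrasts have only 2 Types a side, so separation is common in them. In the cardiomyocytes library fibroblast markers summed to 2127, 2492 and 2811 CPM in AFNCM1 to AFNCM3. They summed to 1058, 861 and 699 CPM in NFNCM1 to NFNCM3, and their part in these counts was not tested. Over wells with at least 500 genes only, without the other well filters, Postn was below in AFNCM against NFNCM as well. The kept wells of the AF and NF Types differed in depth too, with medians of 26877 and 34301.5 UMIs in AF1 and AF2 and 14084.5 and 25246.5 UMIs in NF1 and NF2, and the part of depth was not tested.

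To separate cells within the cardiomyocytes library, its wells were split by the ratio of cardiomyocyte to fibroblast marker UMIs, none of which come from the members. This put 1023 wells at a ratio of at least 10, 157 between 1 and 10 and 116 under 1, with 53 wells near the upper limit (8 to 12.5) and 28 near the lower one (0.8 to 1.25). These are ranges of a ratio and not cell types, and richest or poorer in cardiomyocyte markers stands below for this ratio only. A well with hardly any fibroblast marker UMIs enters the first range even if it holds few cardiomyocyte marker UMIs. That range held 87.5% of the Spp1 UMIs of AFNCM and 80.3% of those of NFNCM. The 5 wells with the most Spp1 had 8496 CPM of cardiomyocyte and 56.1 CPM of fibroblast markers, against 47230 and 1624 CPM in the other wells. Levels of several members were higher in wells poorer in cardiomyocyte markers: Postn was at 86.9, 533 and 760 CPM from the richest to the poorest in cardiomyocyte markers, Fn1 at 292, 1801 and 2614 CPM, Fstl1 at 229, 1096 and 1589 CPM and Thbs1 at 232, 1294 and 1346 CPM. Sparc was at 847 CPM in the wells richest in cardiomyocyte markers, in 94.4% of which it was seen, and Ccn1 was at 206 CPM there and at 403 CPM in the wells under 1. Those richest wells held 64.0% of all Ccn1 UMIs and 56.8% of all Sparc UMIs of the library, and 29.6% of the Postn UMIs, beside 75.4% of the UMIs of all genes.

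**Figure D3:**
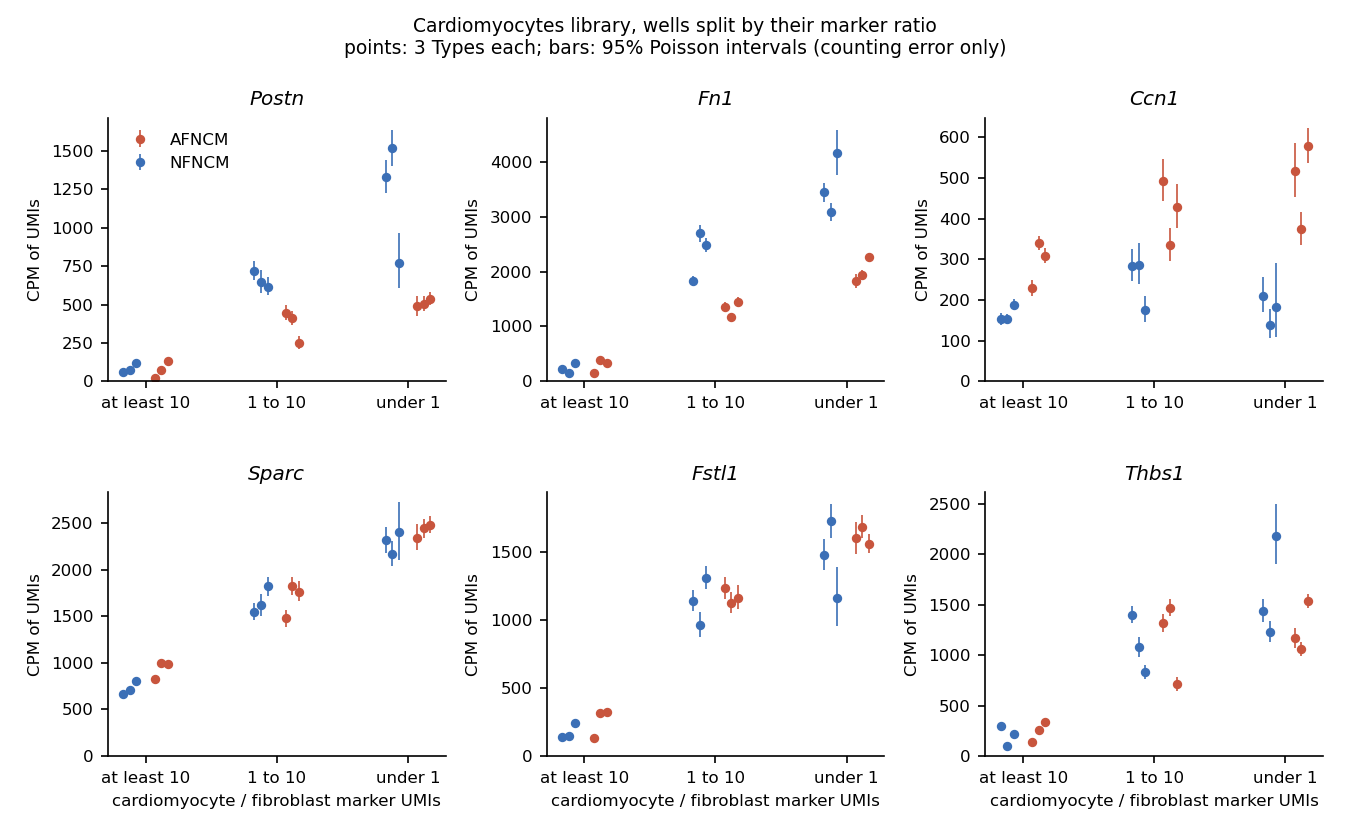
Level of 6 members in the cardiomyocytes library, as CPM of UMIs, against the ratio of cardiomyocyte to fibroblast marker UMIs of the wells; each point is 1 Type (AFNCM red, NFNCM blue) with its 95% Poisson interval for counting error. In wells with a ratio under 1, Postn and Fn1 of NFNCM lie above AFNCM and Ccn1 lies below it.

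Within the wells of a ratio under 1, Postn was at 489, 504 and 537 CPM in AFNCM1 to AFNCM3 and at 1329, 1518 and 774 CPM in NFNCM1 to NFNCM3. These NFNCM Types held 16, 11 and 4 such wells and the AFNCM Types 23, 26 and 34, so the NFNCM values rest on few cells. Fn1 was at 1821, 1936 and 2260 CPM in AFNCM and 3443, 3087 and 4158 CPM in NFNCM. Ccn1 was at 517, 375 and 579 CPM in AFNCM and 209, 139 and 183 CPM in NFNCM. With Spp1, that made 2 members above and 2 below, beside 12.3% and 4.88% of all genes in these wells. Fibroblast markers themselves summed to 8091 CPM in the AFNCM wells and 4125 CPM in the NFNCM wells of this range.

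Between the limits, Postn and Fn1 were again below and Ccn1 and Tnc above in AFNCM, with no overlap, beside 8.87% of all genes above and 7.54% below. Postn was at 444, 413 and 250 CPM in AFNCM1 to AFNCM3 and at 721, 646 and 618 CPM in NFNCM1 to NFNCM3 there. In the wells richest in cardiomyocyte markers 2 members were above and 0 below, beside 12.1% and 5.53% of all genes. They were Sparc (828, 1002 and 988 CPM in AFNCM, 672, 715 and 805 CPM in NFNCM) and Ccn1 (between 230 and 340 CPM in AFNCM, between 154 and 188 CPM in NFNCM). Postn overlapped in these wells, at 23.5 to 130 CPM and 59.5 to 120 CPM. Tnc, Ccn2 and Fstl1, which were above in AFNCM over all kept wells, overlapped here too. Spp1 also overlapped, at 74.4 to 714 CPM in AFNCM and 1.67 to 510 CPM in NFNCM. Fibroblast markers summed to 682 CPM in the AFNCM wells and 280 CPM in the NFNCM wells of this range, and the part of RNA from fibroblasts was not tested.

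Spp1 stood apart from the other members in how its UMIs were spread over wells. In the cardiomyocytes library 210 of 1296 wells held a Spp1 UMI, and the 10 richest held 83.7% of the 7441 UMIs. In the fibroblasts library the 10 richest of 951 wells held 52.3% of 1324 UMIs. For the other members the 10 richest wells held between 7.28% and 27.8% in the first library and between 5.48% and 26.9% in the second. Levels by Type accordingly ranged from 2.01 CPM in NFNCM2 to 554 CPM in AFNCM3. Without the 5 richest wells of each Type, Spp1 was at 5.20, 43.7 and 67.2 CPM in AFNCM1 to AFNCM3 and at 1.89, 0.459 and 1.55 CPM in NFNCM1 to NFNCM3. Thinned to 5000 UMIs per well, the share of wells with a Spp1 UMI was 4.46%, 19% and 24.7% in AFNCM1 to AFNCM3. In NFNCM1 to NFNCM3 it was 3.85%, 2.1% and 4.38%.

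**Figure D4:**
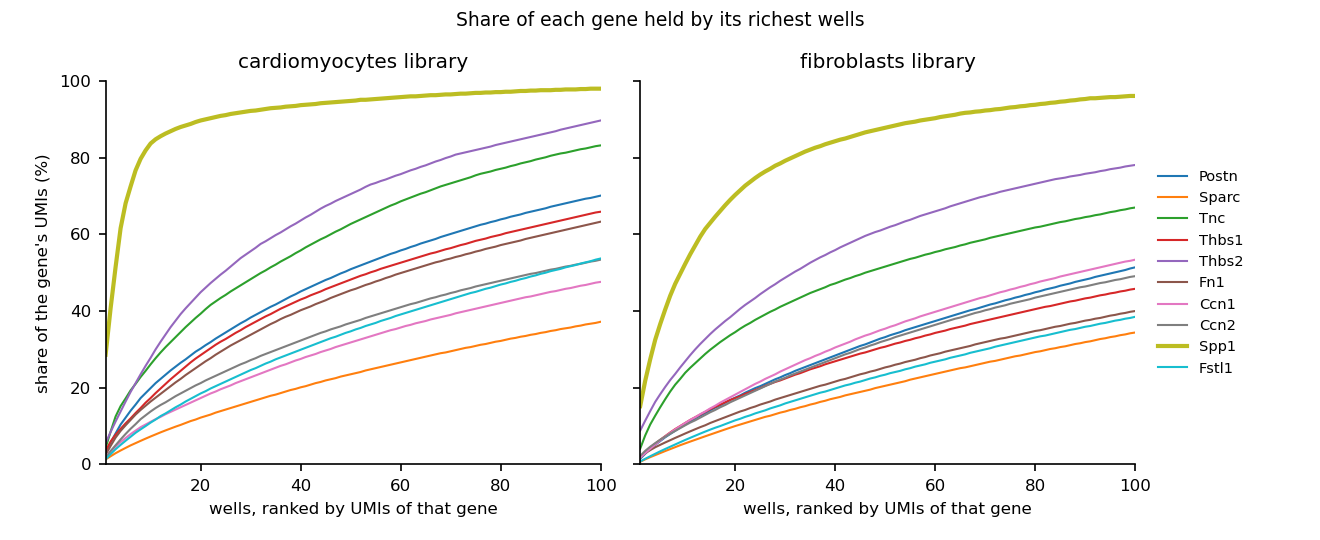
Percent of the UMIs of each member held by its richest wells, ranked from the well with the most, for the cardiomyocytes library (left) and the fibroblasts library (right). The Spp1 curve reaches 83.7% and 52.3% at 10 wells, above the other 9 members.

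Macrophage markers were high in those wells. In the 10 wells richest in Spp1 of the cardiomyocytes library they summed to 14274 CPM, against 265 CPM in the other wells, and 10 of 10 held a macrophage marker UMI (40.9% of the other wells did). Lyz2 was seen in 10, Cd68 in 9 and Adgre1 in 7 of these wells, and each of the 8 markers was seen in at least 3. Cardiomyocyte markers summed to 11365 CPM there and to 47416 CPM elsewhere. These wells had a median of 60291 UMIs, against 17995 in the other wells. In the fibroblasts library macrophage markers summed to 3864 CPM in the 10 wells and 211 CPM in the others. Of the 10 wells 6 held such a UMI, against 44.3% of the others, and Fcgr1 was at 0 in them. Most of that sum was Lyz2, at 3154 CPM and seen in 5 of these wells. Fibroblast markers were higher there as well, at 8296 CPM against 4672 CPM, and the wells were deeper, with a median of 87182 UMIs against 27624. The part of macrophages in the Spp1 levels was not tested.

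Genes whose level followed Postn from well to well were sought among 6206 genes seen in at least 20% of the 951 wells of the fibroblasts library. By Spearman's rho, given as a description since the wells share one library and differ in depth, the closest were the basement membrane collagen gene Col4a1 (0.424), the cardiac troponin gene Tnnt2 (0.399), the collagen gene Col14a1 (0.385), Col4a2 (0.355) and Lpl (0.345). Within single families of Types, Col4a1 had a rho of 0.390 in AF, 0.334 in NF, 0.107 in AF0 and 0.476 in NF0. For Tnnt2 these were 0.0896, 0.143, 0.132 and 0.0983, all far under the value over all wells. Among the members, Thbs1 with Ccn2 had the largest rho (0.386), and the largest negative one was Postn with Ccn1 (-0.208), which within families was between -0.0458 and 0.124. Postn with Sparc was at 0.427 in NF0 and -0.0317 in AF0.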

How the data were processed

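The bulk values that the authors deposited are unscaled read counts for each gene, from reads aligned to mm10 and assigned to RefSeq genes with featureCounts, and use of strand is not stated. For the single cells they deposited UMI counts per gene and well. The labels name STAR 2.5.2b and Subread 1.4.6-p1.

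The RPKM filter of the study was run as an alternative only. Genes with CPM over 1 in at least 2 libraries were compared by edgeR 4.0.16 (R 4.3.3) with TMM scaling and group as the only term, with Benjamini-Hochberg adjustment over 14041 genes. The SE is the size of the log2 fold change over the square root of F. The code of the test was run on counts simulated with the dispersions fitted to these data. The simulated effects were larger than those of all members but Postn, so this does not measure how well smaller ones are found. RPKM used GENCODE exon lengths. Same-numbered libraries deviated with a correlation of -0.176, so the numbers were not used to pair them. Alternatives were other scalings, filters, DESeq2, limma-voom, a replicate block, a stricter fold and leaving out each library.

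A well entered if it showed 500 genes or more, if more than 50% of its decontaminated pairs were aligned, and if its UMI total lay within 2 SD of the mean. Mitochondrial genes and spike-ins were left out, controls were dropped, and no doublet caller was run. Levels were also computed over wells filtered on genes only, as means over wells and with mitochondrial genes.

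All 10 members are named, with at most 4 called genes from each of the 3 related lists and the 5 genes most like Postn. The members, lists and the well split were chosen with earlier results of these data known. An RPKM filter, a crossed block, and the contrasts without the 5 richest wells or without cardiomyocyte-rich wells, were chosen after seeing the data.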

Additional observations from a re-analysis of the deposited data

Results flagged for a closer look

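The 4 members Thbs2, Fstl1, Fn1 and Ccn2 had Types that separated in one direction between AF and NF and in the other between AF0 and NF0, and the difference between these contrasts was not tested. As log2 ratios of the mean levels, Thbs2 was at 1.19 in AF over NF and -0.96 in AF0 over NF0, which differ by 2.15. Fstl1 was at 0.62 and -0.26, which differ by 0.88, and Fn1 at 0.25 and -0.26, which differ by 0.51. Ccn2 ran the other way, at -0.38 and 1.59, a difference of -1.97. Each side of a contrast is 2 Types of 1 library, and Fn1 overlapped between AF0 and NF0 once mitochondrial genes were counted, between AF and NF without the cardiomyocyte-rich wells, and in both contrasts over wells filtered on genes only.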

How the results depend on the processing

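The calls of Postn and Thbs2 stood under every scaling, filter, tool and left-out library tried, and Thbs2 was lost only at a log2 threshold of 1, which left 1 member and 565 genes called in place of 4 and 1564. With single libraries left out, between 879 and 1929 genes and between 2 and 4 members were called. Without imCM-NF replicate 2 there were 879 and without imCM-AF replicate 2 there were 988. No member changed direction. With the replicate block 1430 genes and the same 4 members were called, and with crossed numbers, a setting chosen after seeing the data, 1668 genes. Library totals as the only scaling made 63.6% of calls higher in imCM-AF, against 55.2%. The number of members whose Types did not overlap moved by less than 1.5 times under all alternatives in the 3 contrasts AFNCM with NFNCM, AF with NF and AF0 with NF0. Of 720 well levels 497 left the counting interval of the main value, and of 320 shares of wells 234 did at another thinning. Of 60 levels in the wells richest in cardiomyocyte markers 32 did at another ratio limit. Thbs2, Tnc and Spp1 had no UMI in the median well of 15, 11 and 16 of 16 Types, and the part of depth in this was not tested.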
